A study of Drosophila melanogaster with 82 samples.

Results

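The 66 transcripts described here changed with food in the fat body of adult female Drosophila melanogaster and stayed within a set limit of change in 6 other tissues. They were chosen from 16637 transcripts on the array by 1 rule, applied to the log2 intensity of each transcript averaged over its probes. A member differed by at least 0.6 in fat body between low-yeast food (dietary restriction, DR) and yeast-rich food (AL), and by no more than 0.4 either way in germ line, gut, heart, muscle, neuron and Malpighian tubule. Of the 66 members, 44 were higher on DR food and are called rising members, and 22 were lower and are called falling members. The food differences of all 7 tissues chose the members, so they are given as a description with no test.

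The study asked how the response to nutrients differs between tissues, and it measured messages bound to tagged ribosomes with 82 single-colour arrays, each of 1 pool of female flies. All lines carried 1 copy of UAS-RpL13A-His6FLAG, a FLAG-tagged ribosomal protein, and a GAL4 driver that switched it on in a tissue. Flies were kept for 10 days on DR food (0.5% yeast extract) or AL food (5% yeast extract) and were 13 days old when collected. The drivers were S106-GS-GAL4 for fat body, NGT-GAL4 for germ line, MYOIA-GAL4 for gut, HAND4.2-GAL4 for heart, MHC-GAL4 for muscle, C155-GAL4 for neuron and C42-GAL4 for tubule. Each tissue had 6 DR pools and 6 AL pools, but only 5 AL pools were measured for heart and for neuron. Approximately 100 flies made up each pool, and 200 were taken for neuron.

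The fat body is the fly's main organ of nutrient storage and does the work that liver and adipose tissue share in mammals. It stores fat and glycogen, makes proteins of the blood and of yolk, and reads amino acid supply through the growth kinase TORC1. The gut digests and takes up food, and the Malpighian tubule forms urine. S106-GS-GAL4 is a drug-switched driver known for the abdominal fat body, and expression in parts of the digestive tract has also been described for it. The pulldown is from whole flies, so a message pulled down in a line can come from any cell in which its driver is active. A lower value from such material cannot tell fewer tagged cells from less message per cell.

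None of the 66 members is paired with a gene symbol by the files or the gene table used here, which pairs 16 of the 16637 transcripts with 1 gene. Members are therefore described by transcript identifier, level and tissue, and their functions are not given. Fat body identity could not be checked against its marker genes for the same reason. A message was taken as above background on an array where it exceeded the 95th percentile of the control probes, which carry random sequence. By that measure 43 of 44 rising and 20 of 22 falling members exceeded the control probes on at least 1 fat body array, against 72.9% of all transcripts. Some members never exceeded the control probes elsewhere, where a difference within 0.4 does not show a steady message. In tubule these were 3 rising and 6 falling members, and in gut 3 and 4. In neuron they were 3 and 4, and in heart 1 and 0. Of all transcripts 27.4% never exceeded them in tubule, 18.6% in gut, 8.91% in neuron and 3.26% in heart.

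Large food differences in fat body were common, and few of them came with differences within 0.4 in all 6 other tissues. A difference of at least 0.6 was found for 3339 transcripts, 20.1% of those measured, with 1723 higher and 1616 lower on DR food. The 66 members are 1.98% of these. Neuron kept out the most, with 79.3% of the 3339 beyond 0.4 there, against 61.8% of all transcripts. In gut the shares were 69.4% of the 3339 and 32.5% of all transcripts, and in tubule 68.3% and 35.0%. Leaving neuron out of the rule would have given 151 members, and leaving out any other tissue 81 to 98. Of the 1427 transcripts within 0.4 in the 6 other tissues, 4.63% were members. The same rule with another tissue in place of fat body gave 28 transcripts for gut, 30 for muscle, 41 for heart and 44 for tubule, and it reached its limit of 200 for germ line and neuron.

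The falling members moved further than the rising ones. Rising members had a median fat body difference of 0.72, a 1.65-fold change, with values from 0.60 to 1.78. Falling members had a median of -1.05, a 2.07-fold change, with values from -3.50 to -0.62. A measured difference of 1 or more in size was found for 7 of 44 rising and 12 of 22 falling members, and for 7.96% of all transcripts. The 7 rising members include 3 that appear to measure 1 message, as described below. For 6 of the 7 and 9 of the 12, each food had pools above the control probes. Of the others, FBtr0072355 was at background on DR food and at least 4.87-fold lower there, while the size of the remaining 3 is not settled because 1 or both foods lay at background. The smallest difference inside the rule was 0.604, and the largest outside it, among transcripts steady in the other tissues, was -0.598. On the other cut, the member nearest the limit differed by 0.397 in size in neuron, and the first transcript beyond it by 0.401 in size in tubule.

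**Figure D1:**
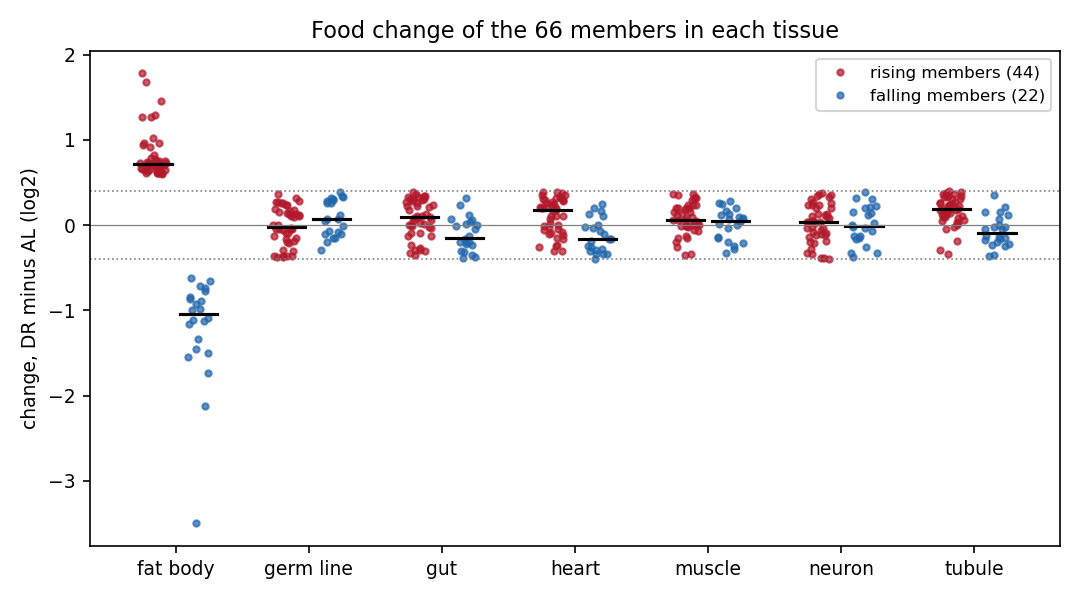
Difference between DR and AL food (log2) of each of the 66 members in the 7 tissues, with rising members in red and falling members in blue. Black bars are medians and dotted lines mark -0.4 and 0.4, the limits that the rule set for the 6 tissues right of fat body. Fat body medians are 0.72 and -1.05.

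The rise of the rising members was even over the pools. In fat body their mean level was 12.30 ± 0.07 on DR food and 11.48 ± 0.09 on AL food (log2, SD, n = 6 each), and the 6 DR pools, from 12.16 to 12.38, lay above all AL pools, from 11.37 to 11.63. Single rising members had DR and AL pools that did not overlap in 41 of 44 cases, where 15.7% of all transcripts were higher in this way. The rule used this contrast, so nothing is read from the count. The median SD between pools of 1 food was 0.14 for rising members, against 0.21 for all transcripts.

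The falling members were more uneven. Their mean level in fat body was 9.26 ± 0.24 on DR food and 10.47 ± 0.18 on AL food (log2, SD, n = 6 each). DR pools ran from 8.85 to 9.48 and AL pools from 10.16 to 10.66, again without overlap. Taken singly, 13 of 22 had pools that did not overlap, and 11.1% of all transcripts were lower in this way. Their median SD between pools of 1 food was 0.35. AL pool 3 was the lowest of the AL pools for the falling members (10.16) and the highest for the rising members (11.63), and DR pool 6 was the lowest DR pool for both (8.85 and 12.16).

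FBtr0079582 had the largest rise. Its log2 intensity in fat body ran from 12.51 to 12.85 on DR food, with a median of 12.83, and from 10.55 to 11.86 on AL food, with a median of 10.82. The difference was 1.78, or 3.44-fold, and every DR pool lay above every AL pool. AL pool 3 stood above the other AL pools, and without it the difference was 1.96. Averaged over both foods this transcript was at a like level in most tissues, from 10.65 in gut to 12.12 in germ line on a scale shared between tissues, with 11.93 in fat body. Its food differences elsewhere lay between -0.15 in germ line and 0.39 in heart.

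FBtr0089003 was the next largest rise and, unlike FBtr0079582, was far brighter in fat body than elsewhere. Its log2 intensity ran from 12.84 to 13.29 on DR food (median 12.99) and from 10.76 to 11.59 on AL food (median 11.49), a 3.19-fold difference with no overlap. Its level over both foods was 12.23 ± 0.79 in fat body (SD over 12 pools), and from 7.24 in muscle to 8.64 in gut in the other tissues. The fat body level was 17.7-fold above the mean of the other 6 tissues (4.14 ± 0.12 SE; limma, adjusted p = 2.57e-45). The muscle and germ line levels were close to the control probes, so this fold is approximate. Before scaling, the 95th percentile of these probes reached 7.94 on muscle AL arrays and 8.58 on germ line DR arrays. All fat body pools lay above all pools of the other tissues, whose highest value was 8.94.

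FBtr0080586 showed the largest fat body excess among rising members. It ran from 13.07 to 13.41 on DR food (median 13.28) and from 12.23 to 12.92 on AL food (median 12.52) in fat body, a difference of 0.70 with no overlap. Its level over both foods was 12.87 ± 0.33 in fat body (SD over 12 pools), against 7.61 in gut to 8.06 in muscle. This is a 32.4-fold excess in fat body (5.02 ± 0.08 SE; limma, adjusted p = 1.16e-59). The levels of the other 6 tissues were all close to the control probes, so the fold is approximate. Before scaling, the 95th percentile of these probes reached 7.98 on gut DR, 7.79 on tubule DR, 8.58 on germ line DR and 9.26 on neuron DR arrays. The pools of the other 6 tissues overlapped one another.

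FBtr0072355 had the largest fall. On DR food its log2 intensity ran from 5.72 to 6.64 with a median of 6.12, and on AL food from 8.16 to 10.22 with a median of 9.85. All 6 DR pools were below the control probes and no AL pool was, so the difference is a bound of at least 4.87-fold lower on DR food, while the measured means differed by -3.50. AL pool 3, at 8.16, stood below the other AL pools, and without it the difference was -3.79. FBtr0072355 was brightest in gut, at 10.55 ± 0.54 (SD over 12 pools), and lower in germ line, heart, muscle, neuron and tubule, at 6.17 to 7.01. In neuron and tubule it never exceeded the control probes. With these at the control level its gut level was 12.5-fold above the mean of those 5 tissues (measured difference 4.11 ± 0.11 SE; limma, adjusted p = 2.07e-45). Germ line, heart and muscle were taken as measured there, so this fold is not a strict bound.

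FBtr0086133, the second largest fall, ran from 9.61 to 11.28 on DR food (median 10.80) and from 12.36 to 12.93 on AL food (median 12.84) in fat body. The difference was -2.12, or 4.35-fold, with no overlap, although the DR pools spread with an SD of 0.75 and the AL pools with 0.25. Its level over both foods was highest in fat body (11.79 ± 1.05 SD over 12 pools), followed by gut (10.99 ± 0.54) and tubule (10.76 ± 0.36). These 3 overlapped in their pools. It was dimmest in heart, at 7.63.

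**Figure D2:**
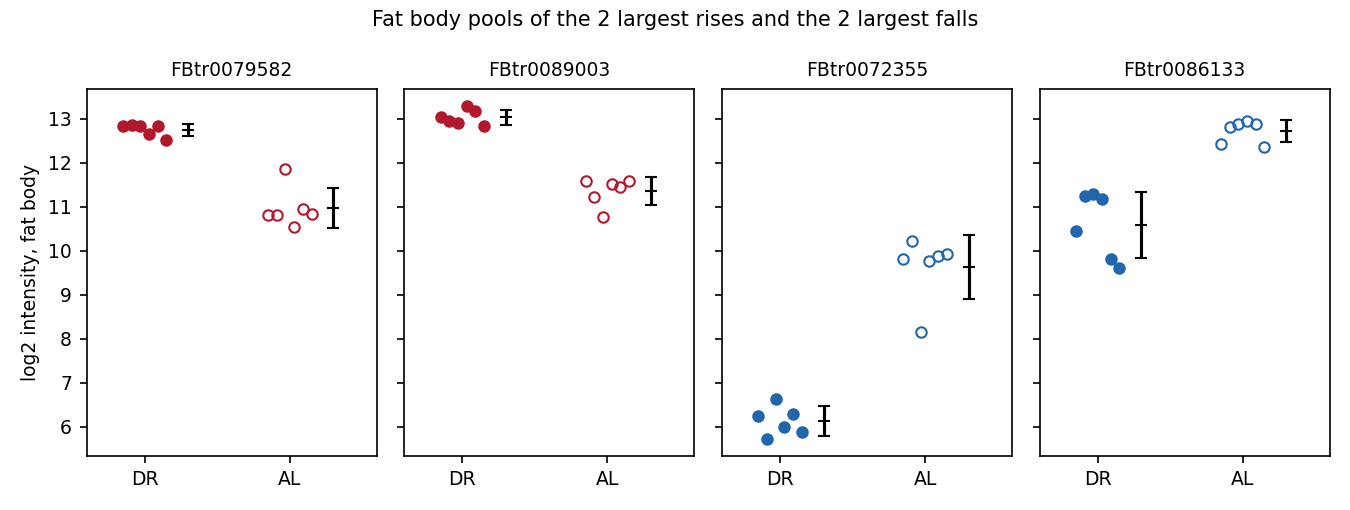
Log2 intensity in each of the 6 DR pools (filled points, left in each panel) and 6 AL pools (open points, right) of fat body for the 2 largest rises (red) and the 2 largest falls (blue). Black bars are mean ± SD. The foods do not overlap in any panel, and AL pool 3 stands apart in the panels of FBtr0079582 and FBtr0072355.

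Each member had 8 probes, whose mean was the value the rule used, so their agreement is a description. All 8 moved the same way for 40 of 44 rising and 21 of 22 falling members, against 41.7% of all transcripts. Probes nearer the start and probes nearer the end of the transcript gave the same sign in all 66 members, against 79.4% of all transcripts. The medians of the early and later probes were 0.74 and 0.70 for rising members, and -0.97 and -1.04 for falling members.

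Several members appear to measure 1 message more than once. Pairs of members were called near-identical where their values over 82 arrays had a Pearson r of at least 0.98 and differed with an SD of at most 0.25. This joined 3 rising members with fat body differences from 1.27 to 1.29, and 2 further pairs of rising members with 0.67 and 0.71 and with 0.63 and 0.65. A pair of falling members had -0.89 and -0.84. The files do not say which transcripts belong to 1 gene. With 1 of each set kept, 40 rising and 21 falling members remain.

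The level of a transcript averaged over both foods, compared between tissues, is a contrast that the rule did not use. In gut it was often high among falling members and was not 2-fold high in any rising member, although the sets overlapped. A level was called higher where it was 2-fold or more above the mean of the compared tissues and limma's adjusted p was below 0.05. In gut, compared with germ line, heart, muscle, neuron and tubule and with no fat body array in the contrast, 13 of 22 falling members were called higher (59.1%), and 0 of 44 rising members were. Of all 16637 transcripts 9.83% were called higher in gut. A high gut level was not particular to the falling members. Among the 1616 transcripts lower by 0.6 or more in fat body on DR food, 564 that are not members were called higher in gut. The 9.83% of all transcripts is therefore not a like baseline for transcripts lower in fat body. The median gut difference was 1.89 for falling members, -0.54 for rising members and -0.11 for all transcripts. For rising members the count was also 0 at an unadjusted p below 0.05 with the 2-fold limit, and 8 of 44 (18.2%) had a smaller gut excess that passed limma's adjusted threshold, against 32.6% of all transcripts at any fold. Of the 22 falling members, 14 had a gut difference above that of every rising member, 7 lay within the range of the rising members (-1.57 to 0.69) and 1 lay below it, at -2.08. At least 2-fold lower in gut were 13 rising members and 1 falling member, with 10.1% of all transcripts.

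FBtr0075602 had the largest gut excess among falling members. Its gut level was 14.38 ± 0.09 (SD over 12 pools) and its level was 12.96 in fat body and 8.81 to 10.48 in the other 5 tissues. Gut exceeded those 5 by 24.7-fold (4.63 ± 0.10 SE; limma, adjusted p = 4.7e-51). In fat body it ran from 11.99 to 13.42 on DR food (median 12.46) and from 13.24 to 13.81 on AL food (median 13.52), a difference of -0.99 in which DR pool 3 overlapped the AL pools. In gut itself the food difference was 0.07.

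FBtr0087664 followed, with a gut level 18.9-fold above the same 5 tissues (4.24 ± 0.14 SE; limma, adjusted p = 3.81e-41). Its level was 12.73 ± 0.35 in gut (SD over 12 pools), 10.99 in fat body and 8.03 to 8.78 elsewhere. In fat body it ran from 9.19 to 10.62 on DR food (median 9.85) and from 8.57 to 12.39 on AL food (median 11.98), with a difference of -1.55. The foods overlapped through AL pool 3 alone, at 8.57, and without that pool the difference was -2.13. In gut its food difference was -0.35.

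**Figure D3:**
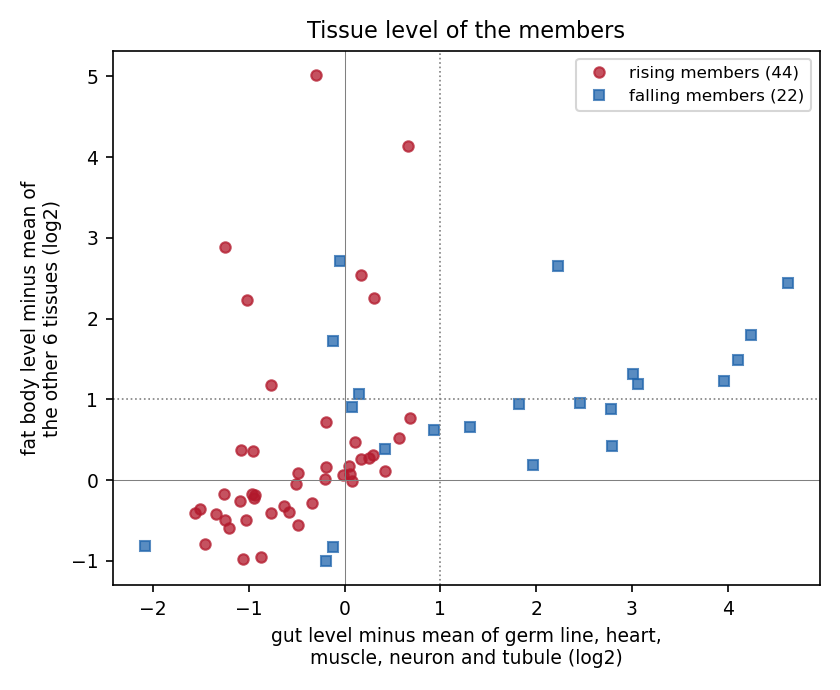
Tissue level of the 44 rising (red circles) and 22 falling members (blue squares), each point 1 transcript averaged over both foods. The horizontal axis is the gut level minus the mean of germ line, heart, muscle, neuron and tubule, the vertical axis the fat body level minus the mean of the other 6 tissues, both in log2, and dotted lines mark 1 (2-fold). The 13 falling members beyond the vertical line are those called higher in gut, and no rising member lies there.

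The 13 falling members called higher in gut had a median level of 12.73 in gut, 11.79 in fat body and 8.97 over the other 5 tissues. Their fat body differences ran from -3.50 to -0.66 with a median of -1.16, against -0.84 for the other 9 falling members. In 12 of the 13 the level was higher in gut than in fat body. In gut their median food difference was -0.20, with 9 of 13 below 0, inside the limits that the rule set.

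The other 9 falling members did not share 1 tissue. Over all 22, the highest level was in gut for 11, in tubule for 7 and in fat body for 4, and in germ line, heart, muscle or neuron for 0. The 7 in tubule include members called higher in gut and both members of the near-identical falling pair. Among all transcripts these shares were 10.9% for gut, 13.7% for tubule and 13.0% for fat body, with germ line alone holding 26.9%. The highest level of rising members was in germ line for 15, muscle for 13, fat body for 12, heart for 3 and tubule for 1.

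In fat body compared with the mean of the other 6 tissues, 7 of 44 rising members (15.9%) and 10 of 22 falling members (45.5%) were called higher, where 10.7% of all transcripts were. A high fat body level was not particular to the members. Of the 1723 transcripts higher by 0.6 or more in fat body on DR food, 267 that are not members were called higher. Of the 1616 lower by as much, 453 were. All transcripts include 27.1% that never exceeded the control probes in fat body. At least 2-fold lower in fat body were 0 rising members and 1 falling member, with 9.51% of all transcripts. At any fold, 40.9% of rising members passed limma's threshold as higher and 43.2% as lower, near the 32.2% and 45.7% of all transcripts. The median difference was 0.04 for rising members, 0.95 for falling members and -0.12 for all transcripts. The count for falling members rests on the scaling between tissues and on the food. It was 6 with the deposited values unscaled, 5 on DR pools alone and 15 on AL pools alone. The order of the 2 foods follows from the rule, which chose falling members for a lower fat body level on DR food, so nothing is read from it. Of the 13 falling members called higher in gut, 7 were also called higher in fat body. The 7 rising members called higher in fat body had a median level of 12.87 there, 8.64 in gut and 7.97 over the other 5 tissues.

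Rising members were bright messages as a group. Their median level in fat body was 12.38, against 10.25 for falling members and 10.11 for all transcripts, on the scale shared between tissues. In the deposited values 34 of 44 rising members (77.3%) and 8 of 22 falling members (36.4%) were among the brightest 30.0% of fat body transcripts. All transcripts include 27.1% that never exceeded the control probes in fat body. No such share was taken among transcripts that met only a part of the rule, so brightness may come with the rule. Over the other 6 tissues 28 of 44 rising members, and 3 of 22 falling members, were among the brightest 30.0%. The number that ends a probe's name, read here as its position along the transcript, was largest at a median of 1453 for rising members, 1363 for falling members and 1024 for all transcripts.

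**Figure D4:**
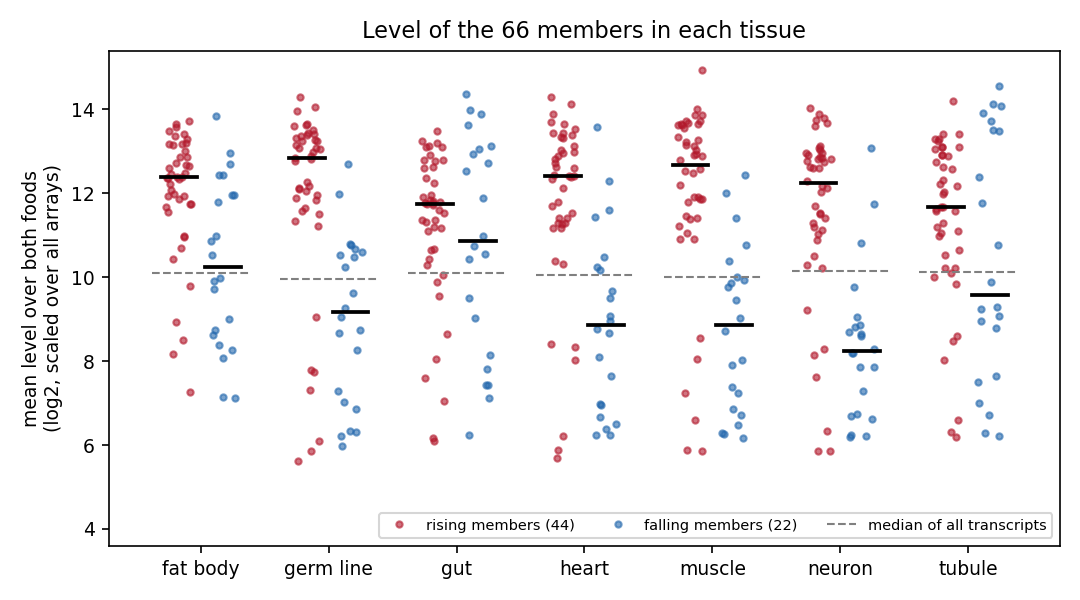
Level of each member in the 7 tissues, averaged over both foods, in log2 on a scale shared between tissues, with rising members in red and falling members in blue. Black bars are medians and dashed lines the median of all 16637 transcripts. Falling members have their highest median in gut (10.87) and their lowest in neuron (8.25), while rising members lie above the dashed line at the median in all 7 tissues.

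Transcripts high in gut that are not members were also examined. Of the 1622 other transcripts called higher in gut, 751 were lower in fat body on DR food (46.3%) and 156 higher (9.62%) at an adjusted p below 0.05 in limma. Of all transcripts 17.3% were lower and 20.3% higher. Their mean level per fat body pool was 10.84 ± 0.14 on DR food, from 10.66 to 11.02, and 11.30 ± 0.07 on AL food, from 11.18 to 11.38 (SD, n = 6 each), without overlap. In gut itself their mean level was 11.86 ± 0.16 on DR food and 11.94 ± 0.10 on AL food (SD, n = 6 each), with overlapping pools. The lower level on DR food was not particular to fat body. In heart the same transcripts averaged 9.47 ± 0.11 on DR food (SD, n = 6), from 9.31 to 9.60, and 9.91 ± 0.03 on AL food (SD, n = 5), from 9.86 to 9.94, again without overlap. Of 1759 fat-body-high transcripts outside the members, 584 (33.2%) were lower in fat body on DR food and 381 (21.7%) higher. The fat-body-high and gut-high sets overlap, with 948 of all transcripts called higher in both. These counts therefore cannot tell whether the lower level was particular to gut-high transcripts. For the gut-high transcripts, fat body AL pool 3 was the lowest AL pool and DR pool 6 the lowest DR pool, as for the falling members. The part of these gut-high messages in the falling members' result was not tested.

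**Figure D5:**
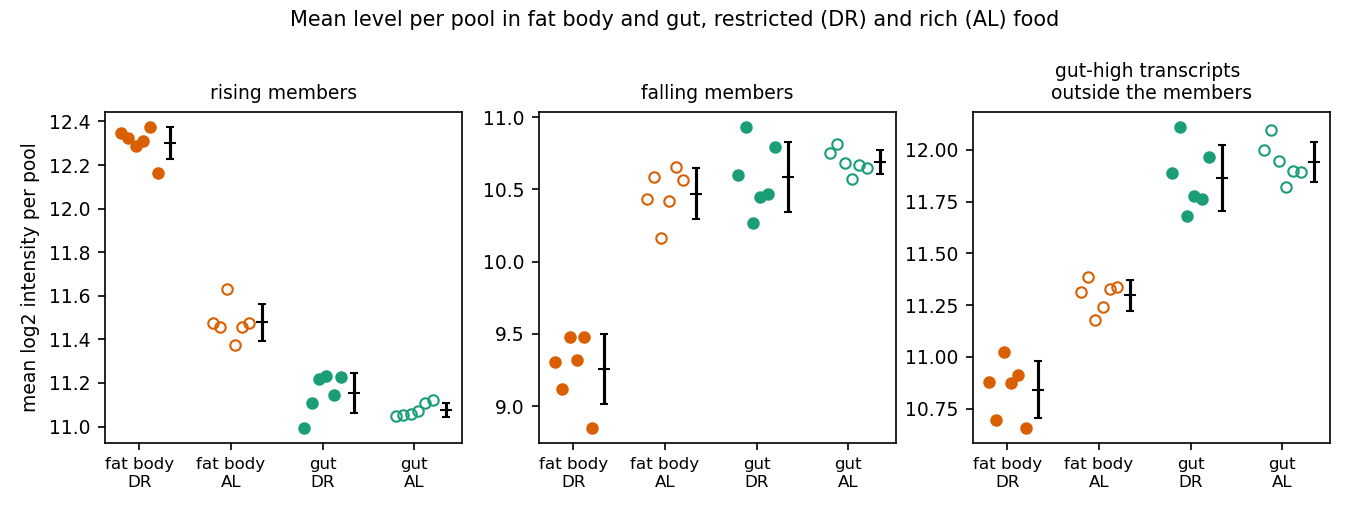
Mean log2 intensity per pool over the 44 rising members, the 22 falling members and the 1622 transcripts called higher in gut that are not members, in fat body (orange) and gut (green), with DR pools filled and AL pools open. Black bars are mean ± SD. In fat body the DR and AL pools do not overlap in any panel, and in gut they overlap in all 3.

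Of the 1427 transcripts steady outside fat body, 48 were called higher in gut, and 13 of these (27.1%) were lower by 0.6 or more in fat body on DR food and so are members. Of the other 1379, 9 (0.653%) did, while 44 (3.19%) were higher by 0.6 or more. At limma's threshold, which takes smaller differences, 23 of the 48 (47.9%) and 121 of the 1379 (8.77%) were lower. These counts use the contrast of the rule and are a description.

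Inside the limits of 0.4, the signs of the members differed between tissues. In tubule 38 of 44 rising members (median 0.19) and 6 of 22 falling members (median -0.09) were above 0, with 49.2% of all transcripts. In heart 29 of 44 (median 0.17) and 5 of 22 (median -0.16) were above 0, with 47.4% of all transcripts, and in gut 28 of 44 (median 0.09) and 7 of 22 (median -0.15), with 52.3%. Muscle and germ line did not show the order of fat body for falling members. In muscle 30 of 44 rising members (median 0.06) and 14 of 22 falling members (median 0.05) were above 0, with 55.5% of all transcripts. In germ line 22 of 44 (median -0.02) and 13 of 22 (median 0.07) were, with 49.1%. In neuron 25 of 44 (median 0.04) and 10 of 22 (median -0.01) were above 0, with 43.5%. A difference within 0.4 could still hold over all pools. In heart the DR pools lay above all AL pools for 17 of 44 rising members and below them for 1. Of all 16637 transcripts 3518 and 4475 did so. In tubule these counts were 12 and 0, with 2822 and 2532, and in gut 4 and 2, with 1827 and 1635. Of the 22 falling members, heart had 0 above and 2 below, tubule 0 and 1, and gut 1 and 0. The rule limited these differences, so nothing is read from the counts.

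One gene with a symbol came near the rule, and it was picked out here after its values were seen. The transcript of mio, which encodes a subunit of GATOR2, a complex that promotes TORC1 signalling when amino acids are plentiful, was higher by 0.82 on DR food in fat body. Its differences were -0.06 in germ line, 0.03 in gut, 0.01 in heart, -0.10 in muscle and 0.22 in tubule. In neuron it was -0.42, which is outside the limit, so mio is not a member.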

How the data were processed

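Translating messages of 7 tissues were measured on 82 single-colour NimbleGen arrays, per the labels' protocols, after FLAG pulldown, whole-transcriptome amplification and Cy3 labelling. The deposited values are linear probe intensities (137098 probes). Within a tissue the sorted log2 values of all arrays lie within 0.04 of each other, so the values appear quantile normalized within each tissue. For the scanner, its software and any background correction, the sources used here give nothing. Intensities were taken to log2 and probes averaged per transcript. Members were chosen on these values without further scaling. Levels were compared between tissues after quantile normalization over all arrays, in a single limma fit of 14 group means (limma 3.58.1, R 4.3.3, data.table version 1.17.8; 68 residual degrees of freedom), with Benjamini-Hochberg adjustment over all 16637 transcripts. This assumes that tissues share 1 distribution of levels. The script was tested on simulated data. Tests are two-sided. The number of arrays limits the precision.

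The members, and gut as a compared tissue, were chosen with earlier results of these data known. The gene and marker lists could not be used, as no member has a symbol. The identifiers printed are the 2 largest rises and falls with pools that do not overlap, the 2 rising members with the largest fat body excess and the 2 falling members with the largest gut excess. The gene table (assembly Release 6 plus ISO1 MT; no coordinates taken) pairs 28 transcripts with several genes and 16593 with none. The arrays hold 4100 control probes, whose 95th percentile on fat body arrays ran from 6.93 to 7.84. Alternatives were other scalings, the median of the probes, single foods, other cuts, dim transcripts left out, array weights, a pool number block and each pool left out. Pool numbers did not pair the fat body samples (correlations of deviations from -0.15 to 0.37). Fat body pools of the same food correlated with r from 0.984 to 0.996 across transcripts, so no pair held identical values. Pools are separate groups of flies per the labels. Figures used Python 3.11.15, numpy 2.4.6, pandas 2.3.3 and matplotlib 3.10.9.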

Additional observations from a re-analysis of the deposited data

Results flagged for a closer look

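A pool far from the others of its group was found in 5 of 44 groups of values tested with Dixon's criterion, and chance flags about 1 in 20. Fat body AL pool 3 was the highest for FBtr0079582 (11.86, the others 10.55 to 10.95). The same pool was the lowest for FBtr0072355 (8.16, the others 9.76 to 10.22) and for FBtr0087664 (8.57, the others 11.67 to 12.39). The mean level of the rising members in tubule DR pool 1 was the highest of its group (11.50, the others 11.43 to 11.45). The mean level of the falling members in tubule AL pool 4 was the lowest of its group (9.77, the others 10.24 to 10.31).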

How the results depend on the processing

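Which transcripts are members depends on the scaling and on how the probes are combined. Quantile normalization over all arrays gave 25 rising and 48 falling members, of which 9 and 12 are among the 44 and 22 described. Cyclic loess gave 29 rising and 31 falling members, of which 10 and 5 are among those described. The median of the probes gave 59 rising and 26 falling members, of which 29 and 12 are among those described. All 66 kept their sign in fat body under each of these settings. With quantile normalization 14 rising and 6 falling members passed 0.4 in germ line. A fat body limit of 0.8 left 12 rising and 17 falling members, and a limit of 0.3 elsewhere left 3 and 5. Leaving out each fat body pool gave 42 to 56 rising and 24 to 28 falling members, and 35 of 44 and 21 of 22 stayed throughout. Counts by level were made for the members described, or a part of them, and not for those chosen anew by another setting. The count of falling members called higher in gut was 13 or 14 under all alternatives, apart from 10 of 15 with the dimmest 25% left out. That of rising members stayed 0. Falling members called higher in fat body numbered 10, with 6 with deposited values unscaled, 7 without germ line and neuron arrays, and 10 to 11 with a pool left out. On DR pools alone they numbered 5 and on AL pools alone 15, an order that follows from the rule. Rising members called higher in fat body numbered 5 to 9. With pool number as a replicate block the counts for level were unchanged at 7, 10, 0 and 13, and the rule gave 40 rising and 19 falling members, because the unpaired DR pools of heart and neuron drop out. Gut-high transcripts lower in fat body numbered 619 to 843 over other settings, and 689 to 763 with a pool left out. These settings, and leaving out germ line and neuron arrays, were chosen after seeing the data. FBtr0086133 was at -1.84 with quantile normalization over all arrays. Array weights did not fully converge. Of the members, 9 had at least 1 food with all fat body pools below the control probes, where the size of a change is limited.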
